A study of Mus musculus with 6 samples.

Results

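The variable segments of the T cell receptor alpha and beta loci are described here in naive CD4+ T cells of infant and adult mice. They were taken as all genes of the count table whose symbol starts with Trav or Trbv followed by a digit, which gave 163 of 52997 genes, 128 of them Trav and 35 Trbv. The infant libraries came from mice aged 10 days and the adult libraries from mice aged 7 weeks, with 3 mice per group and 1 library per mouse. All mice were Foxp3-GFP reporter animals on the C57BL/6 background, in which cells that make the regulatory T cell factor Foxp3 fluoresce green, and in both groups 1000 CD4+ cells of the pooled lymph nodes, named Tconv in the titles, were sorted per library. RNA was amplified from its polyadenylated end and read as pairs of 25 bases, and each value below is a count of reads assigned to the annotated exons of a segment.

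An alpha chain is made by joining 1 Trav to 1 Traj segment, and a beta chain by joining a Trbv to a Trbd and a Trbj segment, in the thymus and by cutting and religating the DNA. Each T cell therefore transcribes mainly the V segments that it rearranged. The share of a segment in all Trav or all Trbv counts of a library is called its usage here. It follows how many of the sorted cells carry the segment and how much RNA each such cell holds. How often a segment was joined was not measured apart from what later happened to the cells. In bulk RNA, fewer cells with a segment and less RNA per cell cannot be told apart. The V segment encodes the first and second antigen-contacting loops and the first residues of the third, the CDR3. The Trav locus holds a large block that is duplicated in C57BL/6 mice, whose copies carry the suffixes d and n. At both loci most V segments lie upstream of the J segments, and Trbv31 lies downstream of the constant genes on the opposite strand.

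The germline ends of the Trbv segments whose usage is described first are shown so that their CDR3 starts can be compared. Each line gives the last 60 bases of the V exon, 5′ to 3′ on the coding strand, from the GENCODE M21 transcripts on mm10. Capitals mark the bases from the conserved cysteine codon to the end of the exon, which is the germline contribution to the CDR3.
Trbv19 (chr6:41178989-41179048, plus strand): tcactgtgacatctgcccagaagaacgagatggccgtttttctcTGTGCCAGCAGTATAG
Trbv20 (chr6:41188918-41188977, plus strand): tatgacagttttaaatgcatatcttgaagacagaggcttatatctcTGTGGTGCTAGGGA
Trbv30 (chr6:41281931-41281990, plus strand): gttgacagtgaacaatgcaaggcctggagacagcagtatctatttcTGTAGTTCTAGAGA
Trbv12-2 (chr6:41119305-41119364, plus strand): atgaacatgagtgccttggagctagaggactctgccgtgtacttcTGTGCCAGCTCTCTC
Trbv31 (chr6:41557693-41557752, minus strand): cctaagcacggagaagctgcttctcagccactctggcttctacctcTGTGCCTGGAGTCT
Trbv4 (chr6:41059827-41059886, plus strand): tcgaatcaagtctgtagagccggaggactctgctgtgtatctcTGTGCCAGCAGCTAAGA
Trbv13-2 (chr6:41121773-41121832, plus strand): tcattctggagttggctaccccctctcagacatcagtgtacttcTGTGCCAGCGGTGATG
Trbv1 (chr6:40891826-40891885, plus strand): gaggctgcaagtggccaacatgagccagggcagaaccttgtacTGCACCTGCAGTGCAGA
The CDR3 start TGTGCCAGC was shared by 13 of the 22 Trbv segments annotated as functional, among them Trbv19, Trbv12-2, Trbv4 and Trbv13-2. Trbv20, Trbv30, Trbv31 and Trbv1 each had a start of their own among the 22. The segments with TGTGCCAGC together made 63.2%, 61.8% and 62.0% of Trbv counts in the infant libraries, against 63.4%, 59.7% and 59.8% in the adult libraries, and the groups overlapped.

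The 6 libraries held 4115742 to 4739304 counts in the infant and 3421253 to 4887371 in the adult group. Trav counts numbered 1103, 799 and 854 in the infant and 778, 581 and 894 in the adult libraries. Trbv counts numbered 3245, 2573 and 2546 in the infant and 2334, 1772 and 2653 in the adult libraries. This is 0.581 to 1.10 Trav and 1.77 to 3.25 Trbv counts per sorted cell, so that the depth per library is close to the number of cells. Counts include PCR copies, because no molecular identifiers were used, and intervals given below cover counting error only. Adult replicate 2 stood apart from the other 5 libraries, with counts at 36373 genes against 17992 to 21840.

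Of the 163 segments, 114 had a count in at least 1 library and 49 had none. The segments at 0 counts were 6 Trbv and 43 Trav, and 41 of the 43 were d or n copies. Of these 43, 39 had under 5% of windows found in no other annotated transcript, so a count of 0 does not show that they were not transcribed. What 25-base reads can resolve differed between the loci. At least 80% of the 25-base windows of a segment were found in no other annotated transcript for 32 of 35 Trbv segments, but for 10 of 128 Trav segments. The 42 Trav segments without any such window held 10 counts in all, in 7 segments. The 51 Trav segments with 20% to under 80% of such windows held 4026 of the Trav counts, and the 10 with 80% or more held 477. Across the 128 Trav segments the percentage of unique windows and the summed count had a Spearman rho of 0.68, given as a description since copies share sequence. There were 17 pairs of Trav segments with identical transcripts, and these 34 segments held 5 counts.

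**Figure D1:**
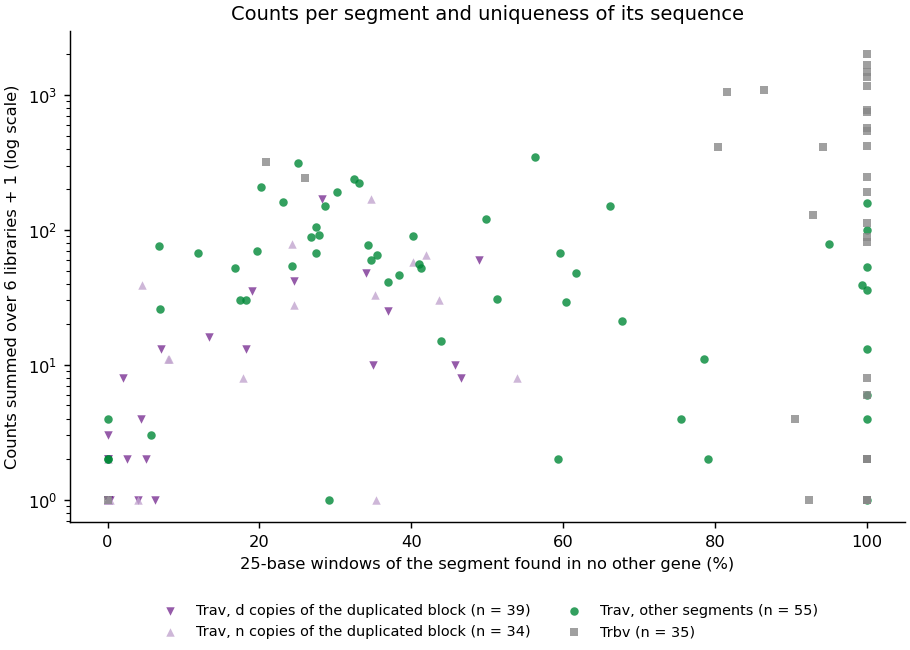
Counts of each of the 163 segments summed over the 6 libraries plus 1 (vertical, log scale) against the percentage of its 25-base windows found in no other gene (horizontal). Most d and n copies of the duplicated Trav block lie at the lower left, and 32 of 35 Trbv segments lie at 80% or more.

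Trav11 and Trav14-3 with their d and n copies show what such reads had to tell apart. Each line gives the same stretch of 80 bases of the V exon in 3 copies, with capitals at the bases that differ among them. The stretch was chosen as the one with the most differing bases, so other stretches of the exon set the copies apart no better.
Trav11 (chr14:53519703-53519782, plus strand): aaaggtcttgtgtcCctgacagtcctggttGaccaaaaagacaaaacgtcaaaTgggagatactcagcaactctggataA
Trav11d (chr14:52824757-52824836, plus strand): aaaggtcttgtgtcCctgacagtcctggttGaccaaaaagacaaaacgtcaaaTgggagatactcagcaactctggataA
Trav11n (chr14:53135522-53135601, plus strand): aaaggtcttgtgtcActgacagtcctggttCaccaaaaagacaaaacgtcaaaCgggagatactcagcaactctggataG
Trav14-3 (chr14:53763596-53763675, plus strand): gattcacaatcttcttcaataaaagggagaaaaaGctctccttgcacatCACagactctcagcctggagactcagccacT
Trav14d-3-dv8 (chr14:53078947-53079026, plus strand): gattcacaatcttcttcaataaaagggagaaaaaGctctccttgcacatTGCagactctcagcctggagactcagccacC
Trav14n-3 (chr14:53370477-53370556, plus strand): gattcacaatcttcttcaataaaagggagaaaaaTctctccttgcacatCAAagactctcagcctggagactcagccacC
Trav11 and Trav11d had no differing base over the 290 bases compared, and Trav11n differed from both at 6. Trav14d-3-dv8 had 97.4% and Trav14n-3 98.1% of the 309 bases of Trav14-3. Counts of single Trav copies are therefore uncertain, and the sources used here do not state how reads that match several places were treated.

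In the beta locus 22 of 35 segments passed the filter on low counts and were tested. Counting reads, Trbv1 (the older name is Vβ2) had the highest mean share over the 6 libraries with 13.6%, followed by Trbv19 (Vβ6) with 10.7% and Trbv16 (Vβ11) with 9.77%. Per exon base, Trbv1 still led with 13.2%, followed by Trbv16 with 9.93% and Trbv13-2 with 8.44%, and Trbv19 stood at 7.69%. At the other end, the 13 segments annotated as pseudogenes together made 0.524% to 1.18% of Trbv counts in the infant and 0.264% to 0.847% in the adult libraries.

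**Figure D2:**
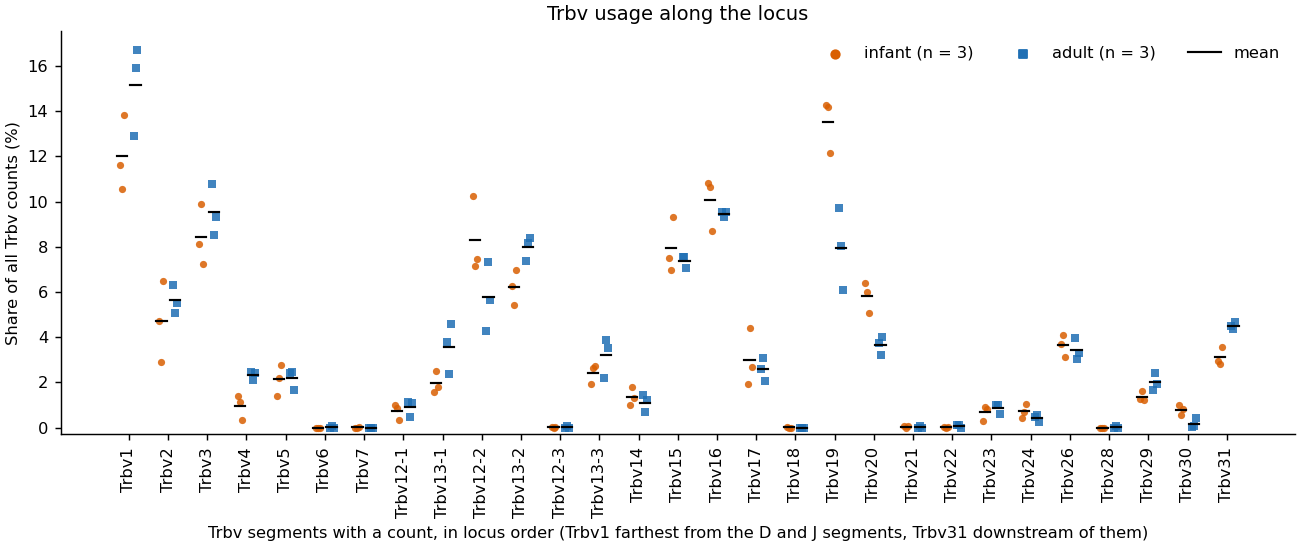
Share of each Trbv segment in all Trbv counts of a library (percent), for the 29 segments with a count in locus order, with infant libraries as circles left of adult libraries as squares and bars at the means (n = 3 each). The infant points of Trbv19 (12.1% to 14.3%) lie above its adult points (6.11% to 9.73%), and most other segments overlap.

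Trbv19 was the segment with the clearest difference between the ages. It lies on chromosome 6 (41178375 to 41179048, plus strand, mm10), and all of its 25-base windows were unique. It made 14.3%, 14.2% and 12.1% of Trbv counts in infant libraries, against 9.73%, 8.01% and 6.11% in adult libraries. All 3 infant shares lay above all 3 adult shares, and the Wilson 95% intervals of the lowest infant library (10.9% to 13.5%) and the highest adult library (8.59% to 10.99%) overlapped slightly. In CPM (counts scaled to library size with edgeR's TMM factors), it stood at 96.9, 88.3 and 74.6 in infant and 55.0, 40.3 and 34.6 in adult libraries. This level was 2.00-fold higher in infant cells (log2 fold change 1.00 ± 0.18, SE; edgeR quasi-likelihood test, Benjamini-Hochberg adjusted p = 0.00654).

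The difference was also tested on usage, with the Trbv total of each library in place of its size. The share of Trbv19 rose in infant cells by a log2 fold change of 0.77 ± 0.17 (edgeR adjusted p = 0.0234). A draw of 1000 cells alone would give its share an SD of 0.979 percentage points, against observed SDs of 1.21 in infant and 1.81 in adult libraries (n = 3 each). The direction held in every subset of libraries tried. The level lost significance without infant replicate 1 (edgeR adjusted p = 0.0516) or infant replicate 2 (0.0611), and the usage without infant replicate 1 (0.115), 2 (0.144) or 3 (0.0578) or adult replicate 3 (0.0973).

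Trbv20 (Vβ15), the next functional segment downstream, was the other segment that rose in level. Its share was 6.41%, 5.99% and 5.07% in infant libraries and 3.73%, 3.22% and 3.995% in adult libraries, so that the groups did not overlap. Its level was 37.3 ± 6.20 CPM in infant and 19.98 ± 3.37 CPM in adult cells (SD, n = 3 each), a log2 fold change of 0.90 ± 0.22 at an edgeR adjusted p of 0.0325. Its usage had a log2 fold change of 0.67 ± 0.20 and missed the threshold (edgeR adjusted p = 0.0846). The call in level was lost without any 1 of the 6 libraries, with adjusted p-values of 0.0523 to 0.147.

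With these 2, 3.92% of the 51 tested segments were called in level, all of them higher in infant cells, against 3.64% of 11681 tested genes called in either direction, 1.52% higher and 2.11% lower. In usage 1 of 51 segments (1.96%) was called, also higher, against 3.64% of all rows of that fit, 1.52% higher and 2.12% lower. The 49 other segments did not pass in level. Groups that did not overlap were seen in CPM for 13 of 51 segments (25.5%), beside 22.8% of all tested genes. By direction, 12 of the 51 (23.5%) were higher, beside 11.2% of tested genes, and 1 (1.96%) was lower, beside 11.6%. In shares the groups did not overlap for 14 of 51 segments (27.5%), 8 higher and 6 lower, and shares were computed within the loci, so no count over all genes stands beside these. Only segments that passed the filter enter either count. The median log2 fold change in level over the 51 was 0.24, beside 0.00 (-0.0017) over all tested genes, and 33 of 51 (64.7%) were above 0, beside 49.7% of tested genes. In usage the median over the 51 was 0.03 (0.0346), with 26 of 51 above 0.

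Trbv12-2 and Trbv30 had higher values in infant cells without passing. Trbv12-2 (Vβ5.1) stood at 69.7, 44.5 and 45.9 CPM in infant and 24.2, 36.9 and 32.1 CPM in adult libraries (log2 fold change 0.79 ± 0.22, edgeR adjusted p = 0.0637). Its shares of 10.3%, 7.15% and 7.46% in infant and 4.28%, 7.34% and 5.65% in adult libraries overlapped. It passed in level without adult replicate 2 (edgeR adjusted p = 0.0482), without a filter on low counts (0.00288) and in DESeq2 (0.0262). Trbv30 (Vβ18), the last segment upstream of the D and J segments, had 32, 14 and 21 counts in infant and 1, 1 and 11 counts in adult libraries. That is 0.986%, 0.544% and 0.825% of infant and 0.0428%, 0.0564% and 0.415% of adult Trbv counts, with no overlap. Its usage had the largest positive log2 fold change among the 51 tested segments, 2.08 ± 0.72, at an edgeR adjusted p of 0.145, and 2 of its adult values rest on 1 count each. Without adult replicate 3, its level had a log2 fold change of 4.12 and passed (edgeR adjusted p = 0.0484).

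Among segments with lower shares in infant cells, none passed the test on usage. Shares within a locus sum to 100%, so higher shares of some segments lower those of others. Trbv31 (Vβ14), which joins by inversion of the DNA, made 2.93%, 2.84% and 3.57% of Trbv counts in infant and 4.50%, 4.35% and 4.67% in adult libraries (usage log2 fold change -0.54 ± 0.21, edgeR adjusted p = 0.206). The groups did not overlap in share, and the SD of the adult shares was 0.164 percentage points. In CPM the groups of Trbv31 overlapped, with a level log2 fold change of -0.31. Trbv4 (Vβ10) made 1.39%, 1.13% and 0.353% in infant and 2.44%, 2.09% and 2.41% in adult libraries (log2 fold change -1.26 ± 0.42, adjusted p = 0.125). It shared most of its windows with transcripts of the gene 5830405F06Rik and 26.0% were unique, so that its count is uncertain. Trbv4 passed in usage without a filter on low counts (edgeR adjusted p = 0.0468).

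The Trbv13 family (Vβ8, 3 segments) lay in the same direction. Trbv13-2 made 6.26%, 5.44% and 6.95% in infant and 7.37%, 8.18% and 8.37% in adult libraries, which did not overlap (usage log2 fold change -0.36 ± 0.17, edgeR adjusted p = 0.307). Its groups did overlap in CPM. The whole family made 9.77%, 10.6% and 11.5% in infant and 13.3%, 14.4% and 16.5% in adult libraries (log2 fold change -0.48 ± 0.14, edgeR adjusted p = 0.0803). Trbv1, at the far end of the locus, made 11.6%, 10.6% and 13.8% in infant and 12.9%, 15.9% and 16.7% in adult libraries. Infant replicate 3 lay above adult replicate 1, so the groups of Trbv1 overlapped (usage log2 fold change -0.34 ± 0.15, edgeR adjusted p = 0.267). Summed by the family number of the symbol, 35 of 54 families were tested and Trbv19, a family of its own, was the only one called, against 3.65% of rows in that fit.

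**Figure D3:**
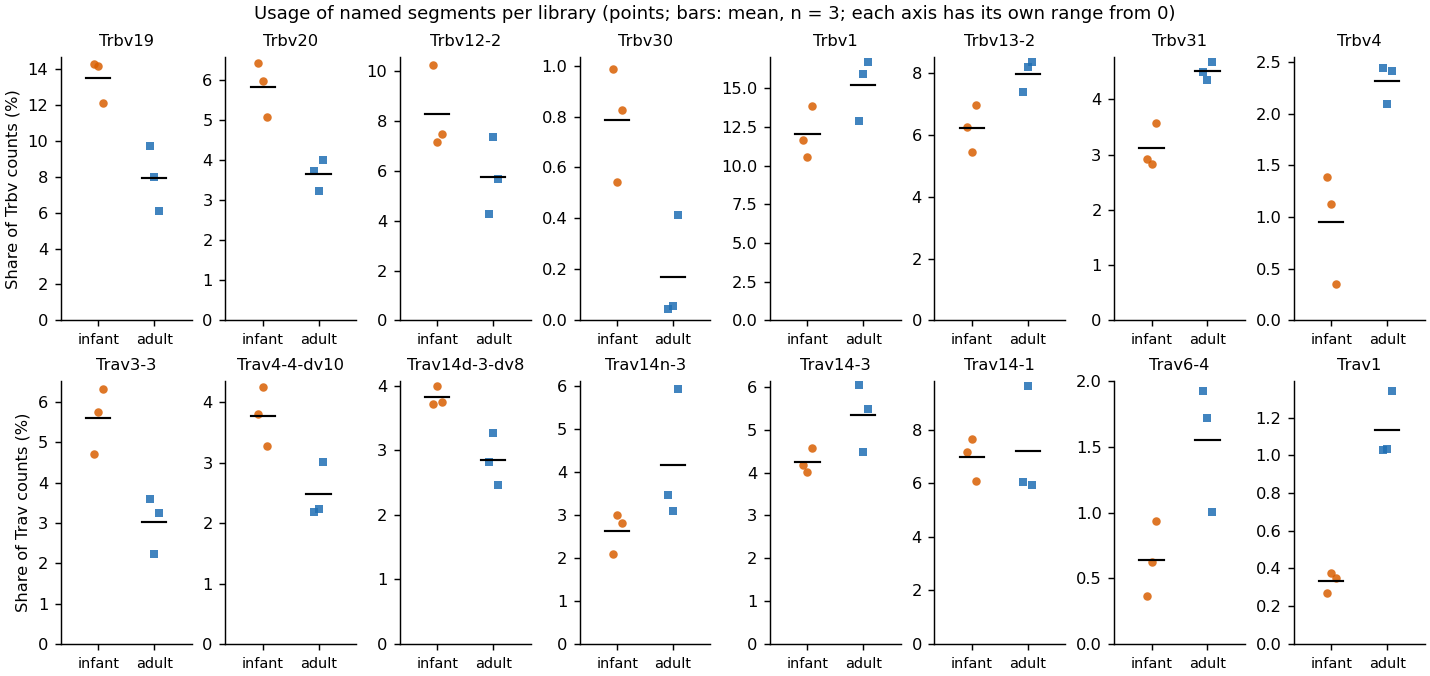
Share of 16 named segments in all Trbv counts (upper row) or all Trav counts (lower row) of each library in percent, infant (circles) left of adult (squares), with bars at the means (n = 3) and each axis from 0. In the upper row Trbv19, Trbv20 and Trbv30 lie higher in infant libraries with no overlap, and Trbv13-2, Trbv31 and Trbv4 lie lower.

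In the alpha locus 29 of 128 segments were tested. None was called in level or usage by edgeR, 1 in each had an unadjusted p under 0.05, and DESeq2 called none in level either. Trav14-1, of the Trav14 family (Vα2), had the highest mean share with 7.08%, per exon base 6.87%, which was also the highest. It made 7.16%, 7.63% and 6.09% in infant and 6.04%, 9.64% and 5.93% in adult libraries. The Trav14 family as a whole made 19.8%, 21.7% and 21.4% of Trav counts in infant and 20.3%, 22.4% and 23.6% in adult libraries, and its groups overlapped. Trav9-2 came next with a mean of 6.03%, then Trav14-3 with 4.79%, Trav3-3 with 4.31%, Trav9-4 with 4.05% and Trav13-1 with 3.82%. Of these, Trav14-1, Trav9-2, Trav14-3, Trav9-4 and Trav13-1 had overlapping shares in the 2 groups, with usage log2 fold changes of -0.33 to 0.10.

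Trav3-3 (chromosome 14, 53665929 to 53666506) had the lowest p of the Trav segments in usage. Its share was 4.71%, 5.76% and 6.32% in infant and 3.60%, 2.24% and 3.24% in adult libraries, with no overlap. The log2 fold change was 0.87 ± 0.35, and the edgeR adjusted p of 0.218 missed the threshold. It shared most of its windows with Trav3d-3 and Trav3n-3, and 33.2% of its windows were unique. The Trav3 family as a whole made 6.89%, 7.26% and 7.14% in infant and 4.76%, 3.96% and 5.59% in adult libraries, also without overlap. No Trav family passed among the 16 tested (lowest edgeR adjusted p = 0.350, none with an unadjusted p under 0.05).

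Near-identical copies had shares on opposite sides. Trav14d-3-dv8 made 3.72%, 4.01% and 3.75% in infant and 2.83%, 3.27% and 2.46% in adult libraries, while its copy Trav14n-3 made 2.09%, 3.00% and 2.81% in infant and 3.47%, 3.10% and 5.93% in adult libraries. Neither pair of groups overlapped, and neither passed (usage log2 fold change 0.43 ± 0.39, edgeR adjusted p = 0.631, and -0.68 ± 0.42, adjusted p = 0.456). Trav4-4-dv10, which can join in the alpha and the delta locus, made 3.81%, 4.26% and 3.28% in infant and 2.19%, 2.24% and 3.02% in adult libraries (log2 fold change 0.60 ± 0.40, edgeR adjusted p = 0.502). Only 23.1% of the windows of Trav4-4-dv10 were unique. Over all d copies the share was 8.08% to 9.34% in infant and 8.17% to 10.3% in adult libraries, and over all n copies 8.79% to 10.9% in infant and 9.81% to 14.3% in adult libraries. Neither kind of copy differed without overlap. How reads were split among the copies was not tested.

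Trav1 and Trav11 are the segments of the semi-invariant alpha chains of mouse MAIT cells and invariant NKT cells. Trav1, the segment farthest from the J segments and with only unique windows, had 3, 3 and 3 counts in infant and 8, 6 and 12 counts in adult libraries. These are shares of 0.272%, 0.375% and 0.351% in infant and 1.03%, 1.03% and 1.34% in adult libraries, with no overlap. The Wilson 95% intervals of single libraries did overlap, from 0.0925% to 1.10% over the infant and from 0.474% to 2.33% over the adult libraries, and Trav1 was too low to be tested. Trav6-4 had 4, 5 and 8 counts in infant and 15, 10 and 9 in adult libraries, which is 0.642% ± 0.287 of Trav counts in infant and 1.55% ± 0.483 in adult libraries (SD, n = 3 each), and was not tested either. Of its windows 41.3% were unique, and 194 of 378 were shared with Trav6d-4, so that its count is uncertain. Trav11 had 2, 0 and 0 counts in infant and 0, 1 and 0 in adult libraries, at or under the floor of 3 counts, which is 0.272% to 0.375% of Trav counts in infant and 0.336% to 0.516% in adult libraries. Because all its windows are shared with Trav11d or Trav11n, no level of invariant NKT chains can be read from these counts.

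For both loci the shares were summed by position. Ranked from the far end of the locus to the J segments and cut into 3 groups of like number, the distal Trav segments made 7.71%, 7.13% and 8.08% of Trav counts in infant and 9.38%, 12.7% and 11.5% in adult libraries. The proximal Trav segments made 76.5%, 73.6% and 74.2% in infant and 73.1%, 69.9% and 65.7% in adult libraries. Neither pair of groups overlapped, while those of the middle segments did. The distal group holds 35 of the 39 d copies, the middle group all 34 n copies and the proximal group neither, and the copies share most of their windows with each other. In the edgeR fit on these sums the log2 fold changes were -0.55 ± 0.24 for distal (adjusted p = 0.249) and 0.11 ± 0.11 for proximal segments (adjusted p = 0.693).

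In the beta locus the distal segments, Trbv1 to Trbv12-1, made 28.3%, 27.6% and 31.1% in infant and 36.0%, 34.6% and 36.7% in adult libraries. The middle segments made 54.8% ± 1.496 in infant and 49.0% ± 1.28 in adult libraries (SD, n = 3 each), a difference of 5.78 percentage points, beside 5.58 for Trbv19 alone, which is one of them. The proximal segments, with Trbv20 and Trbv30, made 13.1% ± 0.812 in infant and 10.7% ± 0.276 in adult libraries. All of these groups were without overlap (exact permutation test, two-sided p = 0.1 each, the smallest that 3 against 3 allows). None of the Trbv sums passed the edgeR test, with log2 fold changes of -0.30 ± 0.11 for distal (adjusted p = 0.145), 0.16 ± 0.10 for middle (0.445) and 0.29 ± 0.13 for proximal segments (0.275), against 3.64% of all rows called. Where the locus was cut into equal spans of bases instead, Trbv1 alone made up the distal group, and Trbv19 fell into the proximal group. The middle segments then had lower shares in infant cells (45.2% ± 1.66 in infant and 49.6% ± 0.822 in adult libraries, SD, n = 3 each, edgeR adjusted p = 0.539).

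**Figure D4:**
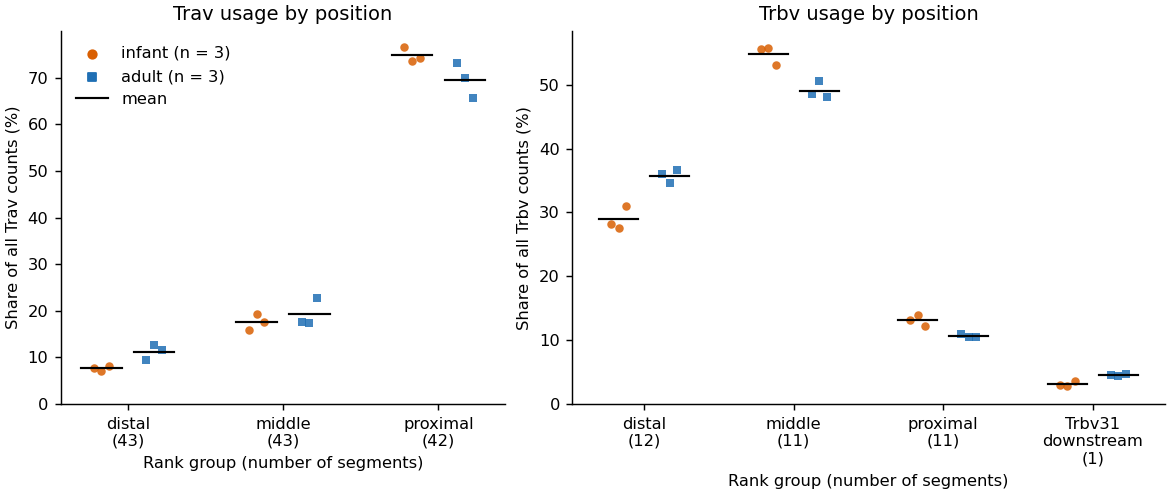
Share of the counts of a locus (percent, from 0) held by segments grouped by rank along the locus, for Trav (left) and Trbv (right), with infant circles left of adult squares and bars at the means (n = 3 each). Distal shares lie lower in infant libraries (Trbv 27.6% to 31.1%, against 34.6% to 36.7% in adult libraries), and proximal shares lie higher.

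As 1 value per library, the count-weighted mean rank of the Trav segments was 93.1, 90.9 and 90.7 in infant and 89.8, 87.1 and 86.9 in adult libraries, on a scale on which rank 128 is nearest the J segments. For Trbv it was 15.7, 16.1 and 15.2 in infant and 14.6, 14.5 and 14.02 in adult libraries. Both were higher in infant cells without overlap (exact permutation test, two-sided p = 0.1 each). Weighted by distance in bases, the Trav groups still did not overlap (1078 ± 13.4 kb in infant and 1040 ± 17.5 kb in adult libraries from the first segment, SD, n = 3 each). The Trbv groups then overlapped (231 ± 4.16 kb in infant and 222 ± 4.31 kb in adult libraries, exact permutation test, two-sided p = 0.2). These Trbv values include Trbv31, which lies beyond the J segments. Without it, a choice made after the data were seen, they were 217 ± 6.10 kb in infant and 201 ± 4.87 kb in adult libraries and did not overlap, and the mean ranks were 15.1 ± 0.540 in infant and 13.4 ± 0.328 in adult libraries (exact permutation test, two-sided p = 0.1 each). Over the 10 Trav segments with at least 80% unique windows the mean rank was 105 ± 5.70 in infant and 96.7 ± 4.37 in adult libraries, and the groups overlapped (exact permutation test, two-sided p = 0.2). Over the 31 Trav segments with at least 10 counts in 3 libraries it was 98.6 ± 0.823 in infant and 97.4 ± 0.831 in adult libraries, and the groups overlapped (exact permutation test, two-sided p = 0.2), with a difference of 1.16 ranks beside 3.65 over all 128 segments.

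How evenly segments were used was not separated by age. The effective number of segments (inverse Simpson index of the shares) was 31.7 ± 1.497 for Trav in infant and 32.6 ± 0.902 in adult libraries, and 12.6 ± 0.483 for Trbv in infant and 13.2 ± 0.416 in adult libraries (SD, n = 3 each), and the groups overlapped at both loci. Between 2 libraries the share of Trbv counts that would have to move to another segment to make them alike was 9.05% to 13.2% within infant, 7.87% to 10.3% within adult and 11.6% to 18.4% between the ages. For Trav it was 19.2% to 21.0% within infant, 25.2% to 26.0% within adult and 23.98% to 26.1% between the ages, so that libraries of different ages were no further apart than adult libraries of the same age.

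The summed level of each locus was somewhat higher in infant cells and did not pass. All Trav segments together had 231, 193 and 206 CPM in infant and 189, 165 and 191 CPM in adult libraries (log2 fold change 0.21 ± 0.11, edgeR adjusted p = 0.377, with 3.65% of rows called in that fit). All Trbv segments had 679, 622 and 615 CPM in infant and 566, 503 and 567 CPM in adult libraries (log2 fold change 0.23 ± 0.10, edgeR adjusted p = 0.245). Both lay without overlap. Set against the constant genes of the same chain, Trbv had 43.8, 41.7 and 36.6 counts per 100 Trbc counts in infant and 35.3, 35.5 and 35.5 in adult libraries, and Trav had 19.995 to 27.5 per 100 Trac counts in infant and 21.2 to 21.98 in adult libraries. The constant genes Trac, Trbc1 and Trbc2 had log2 fold changes of 0.12, 0.09 and -0.04, and none of the 3 passed.

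The other genes of receptor assembly were counted from lists. None of the 52 tested J segments passed, and none of the 4 tested genes among the CD3 chains and the pre-TCR alpha chain, beside 3.64% of all tested genes. The D segments Trbd1 and Trbd2 were too low to be tested. Cd3e, a signalling chain of the receptor, was at 599 ± 34.7 CPM in infant and 615 ± 20.6 CPM in adult cells (SD, n = 3 each). For Cd247, Cd3g and Cd3d, named after their values were seen, the groups did not overlap in CPM, as for 22.8% of all tested genes. Cd247, which encodes the zeta chain, had 479, 463 and 488 CPM in infant and 634, 549.8 and 628 CPM in adult libraries. Its log2 fold change was -0.34 ± 0.10 with an adjusted p of 0.0753 (edgeR). Cd247 passed with library totals in place of the scaling used here (adjusted p = 0.0330, edgeR) and with DESeq2 (adjusted p = 0.0182). It also passed without adult replicate 2 (log2 fold change -0.40, edgeR adjusted p = 0.0157). In edgeR it missed with DESeq2 size factors (adjusted p = 0.0798), the replicate block (0.0849), a stricter filter on low counts (0.0526) or no filter (0.604). It also missed when any other single library was left out (edgeR adjusted p of 0.188 to 0.307). Cd3g was at 954 ± 46.1 CPM in infant and 829.8 ± 34.3 CPM in adult cells (log2 fold change 0.20 ± 0.09, edgeR adjusted p = 0.282). Cd3d was at 721 ± 23.3 CPM in infant and 762 ± 17.5 CPM in adult cells (log2 fold change -0.08 ± 0.09, edgeR adjusted p = 0.717). Among 14 tested genes of V(D)J recombination and end joining 1 fell and 13 did not pass, beside 2.11% of all tested genes lower. The one that fell was Dntt, the terminal transferase that adds untemplated bases at the junctions, with 5.23, 6.29 and 7.25 CPM in infant and 29.3, 24.2 and 15.6 CPM in adult libraries (log2 fold change -1.88 ± 0.31, edgeR adjusted p = 0.00363). Rag1 and Rag2, the recombinase that cuts the DNA, had 0 counts in all infant libraries, and their 14 and 3 adult counts were all in adult replicate 2.

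Markers of other cells were read beside these results. CD4 T cell markers were at 4931 to 5251 CPM in infant and 4661 to 5314 CPM in adult libraries (summed over 7 genes), and no member of that list was at 0. The 5 myeloid markers summed to 14.7 to 19.3 CPM in infant and 5.77 to 14.5 CPM in adult libraries. Most of that sum came from Itgam, at 11.7 CPM on average in infant and 6.71 CPM in adult libraries, and Cd68, at 4.38 CPM in infant and 2.04 CPM in adult libraries, and neither passed. Lyz2 averaged 0.0805 CPM in infant and 0.513 CPM in adult libraries, and Csf1r 0.290 CPM in infant and 0.730 CPM in adult libraries. The 5 thymocyte markers summed to 57.0 to 58.8 CPM in infant and 87.0 to 93.8 CPM in adult libraries. Nearly all of that sum came from Dntt, given above, and Cd1d1, at 51.5 ± 1.96 CPM in infant and 65.1 ± 6.01 CPM in adult libraries (SD, n = 3 each), which did not pass. Rag1, Rag2 and Ptcra were at 0 in every infant library and in adult replicates 1 and 3. The 3 innate-like T cell markers summed to 0 to 0.483 CPM in infant and 0 to 9.66 CPM in adult libraries, with Zbtb16 at 0 in 5 of 6 libraries. The upper adult value was that of adult replicate 2, with 7 Zbtb16, 18 Klrb1c and 9 Klra1 counts. Adult replicate 1 had 0 counts of each, and adult replicate 3 had 2 counts of Klrb1c only. Gamma-delta, B cell, CD8 and regulatory T cell markers overlapped between the ages, and the part of other cells in the usage differences was not tested. Without adult replicate 2, Trbv19 kept its call in level (log2 fold change 0.96, edgeR adjusted p = 0.0168) and in usage (0.78, adjusted p = 0.0413).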

How the data were processed

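The authors deposited raw counts per gene symbol for 6 libraries. The submitters' processing notes name STAR 2.5.4, featureCounts and the build mm10. Annotation release and the treatment of reads with several matches are not stated in them, and the library protocol does not mark strand. Positions, gene types and sequences came from GENCODE M21, in which all 163 symbols matched. The table has no column of another sample.

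Level was tested with edgeR 4.0.16 (R 4.3.3): filterByExpr (minimum count 10, minimum total 15), TMM factors, quasi-likelihood F test, Benjamini-Hochberg adjustment over all 11681 genes at 0.05, infant over adult, no covariate. Usage was tested in the same fit, with the log of the Trav or Trbv total as the offset of the segment rows. Locus, position and family sums replaced the segment rows in further fits. Single values per library were compared by two-sided exact permutation tests, with 20 possible assignments. The p-values rest on the spread among the libraries of 3 mice per age, which edgeR moderates over all tested genes. That spread also holds the draw of cells and PCR copies. Replicates differed by more than sampling noise, with a chi-square of 5.44 to 13.4 per degree of freedom. Samples were not treated as paired by the replicate numbers of the titles (see the closing section). The code was tested on simulated data.

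Segments were named if called, if among the 8 of highest mean share in their locus, if among the 3 in each direction with the largest difference of shares without overlap (mean share at least 0.5%), or as Trav1, Trav11, Trbv1 and Trbv31. The members and lists were chosen with earlier results of these data known. Alternatives were other normalizations and filters, DESeq2 1.42.0, a replicate block, leaving out each library, uniqueness limits and groups cut by span in bases.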

Additional observations from a re-analysis of the deposited data

How the results depend on the processing

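With 3 mice and 1000 cells per library, the depth of about 1 Trav and a few Trbv counts per cell limits single segments, above all Trav, where copies share most 25-base windows. Windows outside annotated transcripts were not searched. The number of segments called higher in level was 1 with the replicate block (Trbv20 then had an adjusted p of 0.0664), and that block left 129 genes higher and 197 lower. The deviations of same-numbered libraries from their group means had correlations of -0.057, -0.0072 and -0.102. These values gave no sign of pairing, but they cannot show whether same-numbered samples were collected or prepared together. Without a filter 1 segment and 1 family were called lower in usage, both Trbv4, with a log2 fold change of -1.26. Among receptor assembly and constant genes 2 were called lower with library totals (Dntt and Cd247) and 2 with DESeq2. DESeq2 called 268 genes higher and 354 lower. Trbv12-2 passed in level without a filter (adjusted p = 0.00288), with DESeq2 (0.0262) and without adult replicate 2 (0.0482), and Trbv30 without adult replicate 3 (log2 fold change 4.12, edgeR adjusted p = 0.0484).

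Directions turned for the Trbv middle group cut by span (-0.14, the construction of the group being different) and for the evenness of Trav over segments with at least 10 counts in 3 libraries (0.671 in place of -0.876). With the offset of well-resolved segments, usage turned to -0.025 for Trav13-1, -0.0091 for Trav9-2 and -0.090 for Trav9-4. The causes were not tested.

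Leaving out 1 library at a time, segments called in level numbered 0 to 2 higher, in usage 0 to 1 higher and 0 to 1 lower, and families 0 to 1 higher. The segment called lower in usage was Trbv13-1, without adult replicate 2, and it is named here after its values were seen. Receptor genes called lower numbered 1 to 2, and all genes 55 to 217 higher and 84 to 271 lower. Log2 fold changes ran from -0.21 to 0.01 (0.0091) for the Trav middle group. In usage they ran from -0.073 to 0.25 for Trav13-1, -0.16 to 0.22 for Trav14-1, -0.12 to 0.38 for Trav9-2, -0.16 to 0.34 for Trav9-4 and -0.023 to 0.19 for Trbv15. In level they ran from -0.19 to 7.19e-05 for Trbv1, -0.29 to 0.22 for Trbv2 and -0.082 to 0.17 for Trbv3. None of these named segments passed the test in any of these fits. The other directions of the position groups, locus totals and mean ranks held under the alternatives run, and no Trav middle value could be computed over segments with at least 80% unique windows.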

Other observations

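The partner segments and constant genes of the beta chain were read beside the V segments. Trbj1 segments, which lie with Trbc1 in the first D-J-C cluster, made 75.9%, 76.9% and 80.2% of Trbj counts in infant libraries and 70.0%, 72.4% and 70.1% in adult libraries. Trbc1 made 58.4%, 58.9% and 58.9% of Trbc1 and Trbc2 counts in infant libraries and 56.1%, 57.1% and 56.8% in adult libraries. Both shares were higher in infant libraries without overlap, and the Trbc1 difference was 2.10 percentage points (exact permutation test, two-sided p = 0.1 each, the smallest possible with 3 against 3). Trbc1 and Trbc2 are near-identical in their coding part, and how their shared reads were counted was not tested. Whether Trbj and Traj counts come only from J segments that were joined was not tested either, so these shares are not joined J usage.

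In the alpha locus the count-weighted mean number of the Traj segment, which counts down towards the constant gene, was 27.1, 24.3 and 26.5 in infant libraries and 26.9, 25.4 and 26.1 in adult libraries. The groups overlapped (exact permutation test, two-sided p = 0.9).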
